A study of Mus musculus with 34 samples.

Results

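The comparison of Mta3_del/del with Mta3_flox/flox embryonic stem (ES) cells asks what changes in the transcriptome of naive mouse ES cells when Mta3 alone is lost. It rests on 6 of the 34 libraries of the series, chosen by their genotype label: 3 from cells homozygous for the deleted allele and 3 from cells homozygous for the conditional (floxed) allele. Both groups carry the strain label 129/Ola and were grown in 2i+LIF, that is, with the 2 kinase inhibitors and the cytokine that hold ES cells in the naive state. The study lists its floxed lines as derived directly from embryos and its Mta3-deleted lines as made from floxed ones by Cre recombination, but it also describes null mice made with a Sox2-Cre transgene and null lines that came from mice, so the route behind each deleted library is not settled here. Whether a deleted and a floxed library of the same number come from the same parental line is not given in the sources used here, and nothing in the labels says that the libraries are separate cultures, so p-values measure the spread between these libraries. RNA was measured by sequencing as reads counted per gene. Each library lists 22018 genes, and library totals ran from 13622624 to 27964576 counts.

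The nucleosome remodelling and deacetylase complex (NuRD) joins a histone deacetylase module to a chromatin remodelling module. The metastasis-associated proteins Mta1, Mta2 and Mta3 are the scaffold of the deacetylase module, in which they hold Hdac1, Hdac2, Rbbp4 and Rbbp7, while Mbd2 or Mbd3 connect it to the remodeller Chd4 and its partners Gatad2a, Gatad2b and Cdk2ap1. Which of the paralogues a complex holds can vary, and Mta3 is known from mammary epithelium as a subunit of complexes that repress the mesenchymal regulator Snai1.

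The libraries fell into 2 kinds that cross the genotypes, and this bears on every count below. In Mta3_del/del replicate 2 and Mta3_flox/flox replicates 1 and 2, 1.63% to 5.94% of all reads lay on 12 predicted genes that sit in satellite repeats of chromosomes 2, 9 and 14 (Gm10800, Gm10715 and others, picked after their values were seen), against 0.0372% to 0.0770% in the other 3. The same 3 libraries listed the most genes above 0 (19877 to 20869 against 17694 to 18331) and held more reads on olfactory receptor genes, which ES cells are not known to use (summed level 88.7 to 184 CPM against 33.5 to 46.8). Since 2 of the 3 lie among the floxed and 1 among the deleted libraries, weight is given below to genes whose mean reached 5 CPM in whichever group was higher and that moved the same way in all 3 same-numbered pairs (the weighted rule), and each main count is also given with the kind of library as a term of the fit. CPM is a gene's count scaled to a common library size, here by the trimmed mean of M-values (TMM). The sex chromosomes also differed by library: 6 Y-linked genes summed to 321.7 CPM in deleted and 247 CPM in floxed replicate 3, against 18.02 to 32.03 CPM in the other 4 libraries.

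Markers of naive ES cells were present in all 6 libraries. Pou5f1 (Oct4) lay at 567 to 622 CPM in the deleted and at 495 to 556 CPM in the floxed libraries, and Nanog at 1089 to 1447 and 1228 to 1448 CPM.

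Mta3 itself (ENSMUSG00000055817, chromosome 17:83706163-83821516, plus strand, GRCm38) was at 11.1, 13.3 and 9.59 CPM in Mta3_del/del replicates 1 to 3 and at 64.9, 73.8 and 72.1 CPM in Mta3_flox/flox replicates 1 to 3. The deleted libraries therefore kept reads on the gene, at a level well under every floxed library (log2 fold change -2.63, SE 0.15, adjusted p = 0.000553 by the edgeR quasi-likelihood test with Benjamini-Hochberg adjustment, as for all adjusted p below). Counts cover the whole gene, and which exons the deletion removes is not given in the sources used here, so these reads do not say how much intact transcript was left.

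Neither paralogue passed the test. Mta1 lay at 83.9, 79.3 and 84.6 CPM in the deleted and at 79.7, 76.8 and 86.97 CPM in the floxed libraries (log2 fold change 0.03, SE 0.09, adjusted p = 0.855). Mta2 lay at 262, 250.2 and 310.1 CPM against 225, 209.7 and 227 CPM, a difference of 0.32 on the log2 scale (SE 0.11) that missed the threshold (adjusted p = 0.0694). Mta3 was the only one of the 15 NuRD subunit genes tested that was called, which took an adjusted p below 0.05 together with a log2 fold change beyond 1 in size. Hdac1, a catalytic subunit, passed the adjusted p with a smaller difference, at 205, 179.7 and 213 CPM in the deleted and 127, 128 and 126 CPM in the floxed libraries (log2 fold change 0.65, SE 0.09, adjusted p = 0.0148). Rbbp7, a histone-binding subunit, did the same (0.65, SE 0.13, adjusted p = 0.0208), as did Mbd3 (0.69, SE 0.18, adjusted p = 0.0373) and Cdk2ap1 (0.52, SE 0.13, adjusted p = 0.0328). Chd5, a remodeller paralogue of low level here, was lower at 7.61, 6.78 and 7.68 against 12.6, 12.6 and 13.7 CPM (-0.82, SE 0.16, adjusted p = 0.0207). Chd4, Hdac2, Rbbp4, Gatad2a and Gatad2b did not pass. Among 18 genes of proteins that bind NuRD, the zinc finger factor Sall1 rose, from 105.2, 84.0 and 75.0 CPM to 179, 218 and 178 CPM (log2 fold change 1.12, SE 0.14, adjusted p = 0.0141), and Zfpm1, a GATA cofactor, fell, from 22.0, 26.5 and 33.4 CPM to 6.79, 16.9 and 8.81 CPM (-1.34, SE 0.32, adjusted p = 0.0308).

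Across the 15522 genes tested, 126 were called increased (0.812%) and 815 decreased (5.25%) in Mta3_del/del. With the weight on genes of at least 5 CPM and 3 agreeing pairs, 106 were increased (0.948% of 11176) and 337 decreased (3.02%). Of the decreased genes, 478 lay below 5 CPM, against 19 of the increased. The share called decreased was 9.68% among genes with a mean under 1 CPM, 13.5% from 1 to 5 CPM, 6.18% from 5 to 20 CPM, 0.694% from 20 to 100 CPM and 0.124% above 100 CPM. The excess of decreased over increased calls thus lay among genes of low level, while from 20 CPM upward the numbers were alike or higher for increased genes (40 increased and 35 decreased at 20 to 100 CPM, 10 and 3 above). The median log2 fold change over all genes tested was -0.01. By adjusted p alone, 1291 genes were higher (8.32%) and 1217 lower (7.84%). Complete separation of the groups was common: the deleted libraries were all above the floxed in 21.1% and all below in 19.7% of genes tested, or 28.2% and 14.5% of those at 5 CPM, so that alone it says little of a single gene. Of all genes tested, 29.5% were higher and 30.4% lower in all 3 pairs (38.7% and 21.2% of those at 5 CPM), and at an unadjusted p below 0.05, 18.1% were higher and 18% lower.

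With the kind of library as a term of the fit, 85 genes were increased and 659 decreased, or 72 and 293 by the weighted rule. Of the 106 and 337 genes, 60 and 274 were called again. Differences were also taken within the 3 libraries low in satellite reads (2 deleted, 1 floxed) and within the 3 high ones (1 deleted, 2 floxed). All 106 increased genes but 1 (Trh) and all 337 decreased genes differed in the same direction in both. In 100 of the 106 and 335 of the 337 the groups did not overlap, which fixes that direction beforehand. By more than 1 on the log2 scale in both, 33 and 179 of them differed. Single libraries weighed heavily on the counts. Without Mta3_del/del replicate 1 the fit called 1 gene increased and 2 decreased. Leaving out deleted replicate 3 left 41 and 205, floxed replicate 2 left 38 and 186, floxed replicate 3 left 44 and 331 and floxed replicate 1 left 102 and 451, whereas 251 and 1473 were called without deleted replicate 2. All 443 genes of the weighted sets kept the sign of their change in each of these fits. As they were chosen for large differences in these same libraries, a kept sign was largely fixed beforehand.

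**Figure D1:**
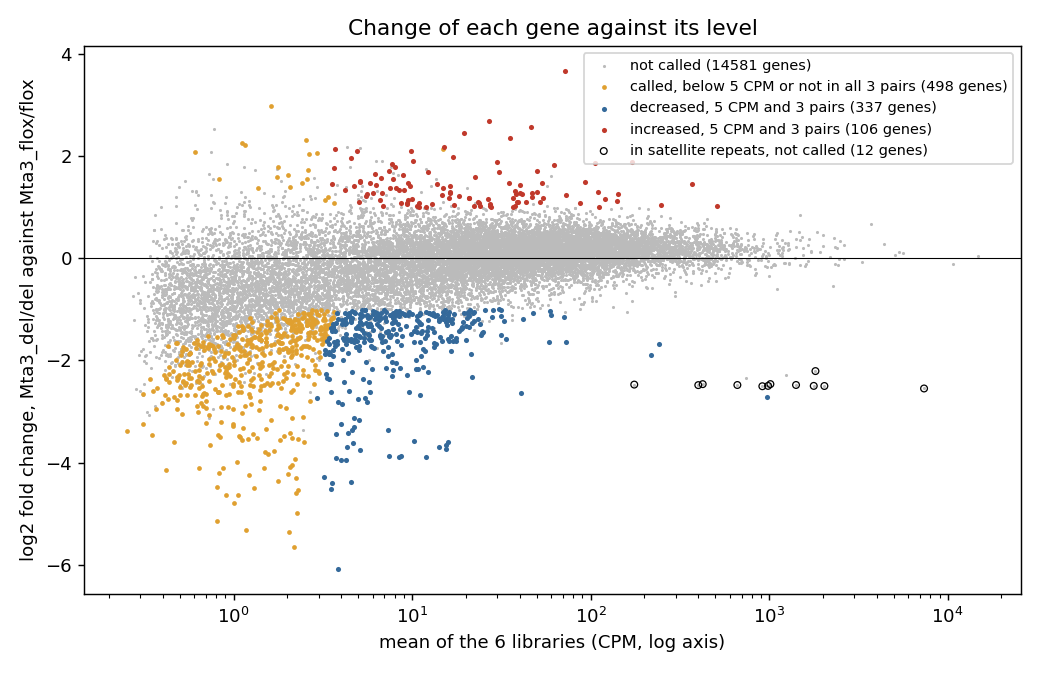
Each point is 1 of the 15522 genes tested, with its mean CPM over the 6 libraries on a log axis and its log2 fold change in Mta3_del/del against Mta3_flox/flox. The 19 increased and 478 decreased genes below 5 CPM sit at the left and mostly under 0, and the 12 satellite-repeat genes, circled, lie together well under 0 without being called.

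Genes of the 2-cell stage of the mouse embryo were decreased throughout the list. ES cell cultures hold a small fraction of cells that switch on this programme for a time, in which Zscan4 proteins act on telomeres and genome stability, and Dux is the transcription factor that starts it. Of the 24 genes listed for this class, 23 were in the files and 17 could be tested. All 17 were decreased, with a median log2 fold change of -3.53, and so were all 11 with a mean of at least 5 CPM. Summed over the list, the level was 18.4, 19.9 and 33.2 CPM in the deleted libraries and 94.1, 389 and 133 CPM in the floxed libraries. The groups did not overlap, and floxed replicate 2 stood above the other floxed libraries. In bulk RNA, fewer cells in this state and less RNA per such cell cannot be told apart.

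Zscan4c was at 1.81, 0.93 and 4.16 CPM in the deleted and at 11.9, 53.8 and 19.8 CPM in the floxed libraries (log2 fold change -3.65, SE 0.66, adjusted p = 0.0194). Zscan4f was at 2.22, 0.97 and 4.12 against 10.8, 56.0 and 20.6 CPM (-3.60, SE 0.67, adjusted p = 0.0204). Even the lowest floxed library was above the highest deleted library for each of these genes, and without floxed replicate 2 the fitted values were -2.80 and -2.70. Zscan4b (-3.88), Zscan4d (-3.58) and Zscan4e (-3.90) were decreased too. Duxf3, the symbol of Dux in the annotation used here, was at 0.26, 1.05 and 0.22 CPM against 2.98, 7.84 and 2.39 CPM (-3.11, SE 0.68, adjusted p = 0.0245), below the level at which weight is given. Of the Usp17l deubiquitinase genes, Usp17la overlapped between groups (2.95, 5.97 and 3.30 against 13.1, 21.5 and 5.23 CPM), and Usp17lc and Usp17le did not. The median difference of the 17 genes was -2.50 within the libraries low in satellite reads and -3.13 within those high in them.

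The Zscan4 genes are close copies of each other, as the promoters of 3 of them show (RefSeq, GRCm38.p6, 250 bases before the listed start). The capitals mark the 48-base run that these 3 and Zscan4b share, and between any 2 of these 4 genes 94.7% to 99.6% of the aligned bases, 216 to 250 in number, were identical. Reads from such copies can be split between genes or dropped, so the sum over the family is better measured than any single member.
Zscan4c, chr7:11005495-11005744, plus strand: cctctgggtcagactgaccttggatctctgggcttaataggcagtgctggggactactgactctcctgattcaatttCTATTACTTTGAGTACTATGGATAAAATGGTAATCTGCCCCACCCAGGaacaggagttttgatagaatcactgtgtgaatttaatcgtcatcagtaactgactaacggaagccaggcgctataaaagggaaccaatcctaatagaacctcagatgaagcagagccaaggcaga
Zscan4d, chr7:11166149-11166398, minus strand: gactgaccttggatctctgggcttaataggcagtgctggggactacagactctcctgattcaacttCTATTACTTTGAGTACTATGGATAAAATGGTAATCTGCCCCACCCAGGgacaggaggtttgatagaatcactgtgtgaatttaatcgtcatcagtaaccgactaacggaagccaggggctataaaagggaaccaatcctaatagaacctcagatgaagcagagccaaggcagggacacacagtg
Zscan4f, chr7:11397665-11397914, plus strand: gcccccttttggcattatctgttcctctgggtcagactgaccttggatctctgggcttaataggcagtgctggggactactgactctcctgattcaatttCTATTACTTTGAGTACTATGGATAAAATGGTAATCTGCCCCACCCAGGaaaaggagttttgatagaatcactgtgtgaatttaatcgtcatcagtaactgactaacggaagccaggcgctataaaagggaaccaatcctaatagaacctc

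**Figure D2:**
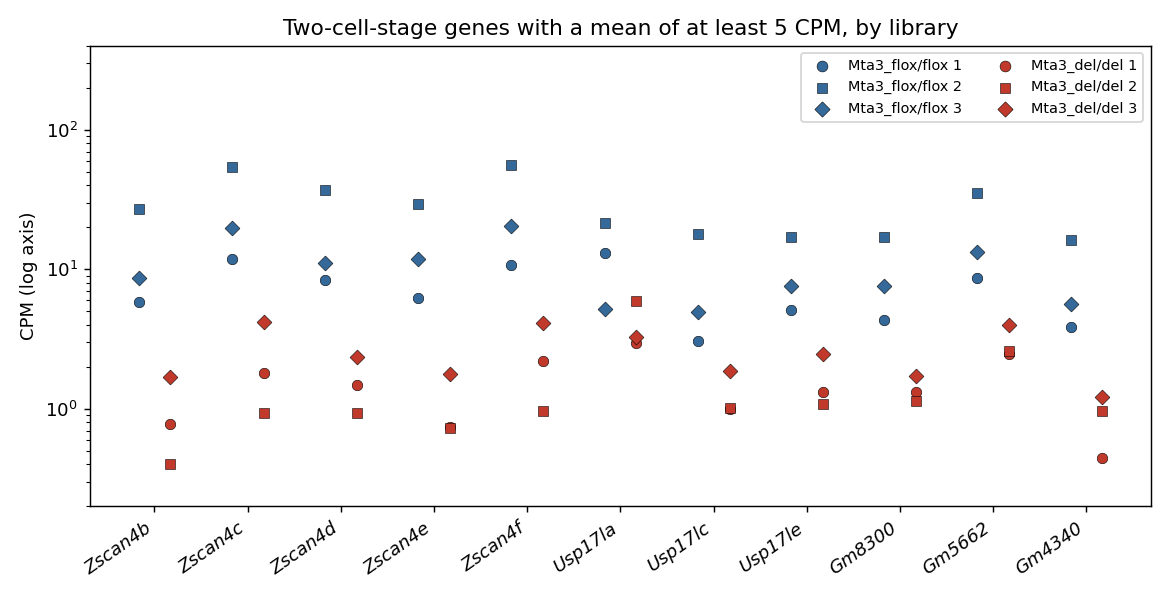
CPM on a log axis of the 11 genes of the 2-cell-stage list with a mean of at least 5 CPM, with 1 symbol per library. Apart from Usp17la, each floxed library lies above each deleted library, and floxed replicate 2 (square) is the highest floxed library of every gene.

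The 12 most strongly decreased genes by the weighted rule included Zscan4b, Zscan4e and the pseudogenes Zscan4-ps1 (-3.87) and Zscan4-ps3 (-3.88). Another 7 carry only predicted-gene names, led by Gm13119 (-4.52), Gm13057 (-4.41) and BC080695 (-4.39), of which Gm13119 was -3.59 and BC080695 -3.36 without floxed replicate 2. The last was Col3a1, given with the collagens. Further down the same order, 4 genes named here after their values were seen had levels that did not overlap between groups. Dll1, a Notch ligand, was at 0.739, 0.565 and 0.564 CPM in the deleted and at 7.26, 2.76 and 10.5 CPM in the floxed libraries (-3.44, SE 0.50, adjusted p = 0.0148). Sp110, a nuclear body protein gene, was at 0.849, 2.14 and 0.954 against 10.3, 23.2 and 6.79 CPM (-3.35, SE 0.53, adjusted p = 0.0167). Tmem92 was at 1.66, 1.37 and 3.12 against 11.04, 47.4 and 20.2 CPM (-3.69, SE 0.56, adjusted p = 0.0151). Tmem72 stood out by its level, at 256, 269.6 and 254 CPM in the deleted and 729.97, 3383 and 977 CPM in the floxed libraries (-2.71, SE 0.52, adjusted p = 0.0207), with floxed replicate 2 highest, as for the Zscan4 genes.

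Of the germline genes, 26 were listed and all were tested. Of these, 4 were decreased and none increased, against 5.25% and 0.812% of all genes tested. By the weighted rule 4 of the 19 at 5 CPM were decreased, against 3.02% of all genes at that level. Lower in all 3 pairs were 18 (69.2%, against 30.4% of all genes tested and 21.2% of those at 5 CPM), and the median was -0.55. Dazl, an RNA-binding protein of germ cells, fell from 154, 473 and 400.5 CPM to 80.0, 104.8 and 89.98 CPM (-1.90, SE 0.35, adjusted p = 0.0200). Tex13b (-2.16, adjusted p = 0.0209), the meiotic cohesin subunit gene Smc1b (-1.19, adjusted p = 0.0238) and the piRNA pathway helicase gene Mov10l1 (-1.05, adjusted p = 0.0238) were the other three. The regulator Ddx4 was not called, with 14.2 to 15.9 CPM in the deleted and 14.3 to 22.1 CPM in the floxed libraries. Of 22 HOX genes tested, 5 were decreased, against 5.25% of all genes tested, and all of these lay below 5 CPM.

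Targets of canonical Wnt signalling were among the genes that rose. In this pathway a Wnt ligand stops Gsk3 from marking beta-catenin for destruction, and beta-catenin then acts with TCF/LEF factors on its targets. The 2i medium contains an inhibitor of Gsk3, so the pathway is engaged in both groups. Of 18 listed targets, 3 were increased and none decreased, against 0.812% and 5.25% of all genes tested. The list had a median of 0.66. Sp5, a zinc finger factor that is a direct target, was at 60.1, 16.7 and 63.8 CPM in the deleted and at 10.2, 6.46 and 5.51 CPM in the floxed libraries (log2 fold change 2.69, SE 0.48, adjusted p = 0.0189). Axin2, a scaffold of the destruction complex and a feedback inhibitor, was at 209, 86.6 and 200.3 against 61.7, 42.5 and 32.9 CPM (1.86, SE 0.34, adjusted p = 0.0198). Notum, a secreted enzyme that inactivates Wnt ligands, was at 181, 92.6 and 140.0 against 55.1, 43.2 and 48.7 CPM (1.495, SE 0.22, adjusted p = 0.0148). In all 3 genes deleted replicate 2 was the lowest deleted library and yet above every floxed library. Of the factors themselves, Tcf7l2 (0.94, adjusted p = 0.0307) and Tcf7l1 (0.58, adjusted p = 0.0204) passed the adjusted p without reaching the fold threshold, and Lef1 and Tcf7 did not pass. Cdx1 was at 44.6, 14.5 and 50.2 CPM against 20.3, 29.7 and 15.5 CPM, and Ccnd1 at 148, 66.5 and 155 against 76.3, 91.1 and 98.3 CPM, so that deleted replicate 2 lay within the floxed range and neither gene passed. Summed over the list, the deleted libraries stood at 917, 483 and 860.1 CPM and the floxed at 403, 390.2 and 399 CPM.

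The promoter of Sp5 is shown because it holds a TCF/LEF motif, CTTTGATC, in capitals, 96 bases before the listed start. That motif, searched on both strands, was in 0.801% of all 32851 windows, in 1 of 13 Wnt targets with an entry, and in 2 of the 77 increased genes (2.60%), none of the 247 decreased genes and 0.857% of the 11906 tested genes that had an entry. A match is a description of these letters only.
Sp5, chr2:70474673-70474922, plus strand: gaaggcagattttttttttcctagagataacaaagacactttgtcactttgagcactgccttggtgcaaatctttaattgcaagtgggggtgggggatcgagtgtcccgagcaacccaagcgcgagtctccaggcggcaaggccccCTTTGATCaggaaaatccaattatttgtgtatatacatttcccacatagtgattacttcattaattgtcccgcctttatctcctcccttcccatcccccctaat

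Nodal signalling showed the same shape. Nodal acts through Smad2 and Smad3 with Foxh1, and the Lefty proteins are its secreted antagonists and its targets. Of 14 genes tested, 3 were increased and none decreased, against 0.812% and 5.25% of all genes tested. Lefty1 was at 51.8, 13.04 and 34.1 CPM in the deleted and at 5.01, 7.95 and 4.99 CPM in the floxed libraries (2.45, SE 0.45, adjusted p = 0.0201). Lefty2 was at 378, 150.4 and 275.6 against 67.0, 93.0 and 57.8 CPM (1.88, SE 0.31, adjusted p = 0.0174). The ligand gene Nodal (0.38, adjusted p = 0.0949) and the signal transducers Smad2 and Smad3 did not pass. Foxh1 missed the fold threshold (0.96, adjusted p = 0.0352).

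Of 12 general pluripotency genes, 2 were increased, against 0.812% of all genes tested. Lin28a, which blocks maturation of let-7 microRNAs and marks cells leaving the naive state, was at 104.9, 36.6 and 96.3 CPM in the deleted and at 18.5, 13.9 and 8.18 CPM in the floxed libraries (2.57, SE 0.42, adjusted p = 0.0167). L1td1, an RNA-binding protein gene of pluripotent cells, changed with little spread, at 162, 145 and 162 against 62.9, 66.3 and 60.7 CPM (1.30, SE 0.09, adjusted p = 0.00208). By contrast, none of the 20 naive pluripotency genes was called in edgeR or DESeq2, 1 was in limma-voom (Gbx2), 3 were higher and 1 lower at an unadjusted p below 0.05, and their median was 0.03. Esrrb (0.19), Klf4 (-0.03) and Tbx3 (-0.09) lay near no difference, and Nr5a2 (0.75) and Pecam1 (-0.73) passed the adjusted p alone, at 0.0200 and 0.0208.

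Trh, which encodes thyrotropin-releasing hormone, had the largest fitted increase (3.67, SE 0.92, adjusted p = 0.0337) but not the most even. Its level was 194, 10.6 and 192 CPM in the deleted and 18.2, 8.17 and 5.79 CPM in the floxed libraries, so deleted replicate 2 lay within the floxed range and was its group's lowest by far, and within the libraries high in satellite reads the difference was -0.20. With the kind of library as a term its adjusted p was 0.257. Other genes of the 12 largest increases were of lower level. Krt42, a keratin, was at 22.9, 18.8 and 32.1 against 9.95, 2.50 and 4.43 CPM (2.18, SE 0.44, adjusted p = 0.0218), and Nkx6-2, a homeobox factor of neural cells, at 5.13, 4.44 and 8.503 against 1.96, 1.19 and 1.04 CPM (2.14, SE 0.36, adjusted p = 0.0178). Both kept all deleted above all floxed libraries. Krt42 was 2.83 without floxed replicate 1. Ina, Trim2, Pdzrn4 and Enox1 were not called with the kind of library as a term.

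Of 33 imprinted genes tested, 2 were increased and 2 decreased, against 0.812% and 5.25% of all genes tested. The decreased share was thus near that over all genes, and the median of the list was -0.02. Peg10, a gag-like gene needed for the placenta, rose from 11.99, 16.6 and 6.39 CPM to 73.7, 63.1 and 41.3 CPM (2.35, SE 0.34, adjusted p = 0.0148). Sfmbt2, a Polycomb-group protein gene of extra-embryonic tissue, rose from 36.1, 29.9 and 17.0 CPM to 123, 128 and 40.997 CPM (1.82, SE 0.42, adjusted p = 0.0281). Igf2 was called decreased (-2.74, SE 0.78, adjusted p = 0.0478) on the strength of floxed replicate 3: its levels were 1.33, 1.21 and 1.78 against 1.67, 5.08 and 21.7 CPM, the groups overlapped, and without that library the fitted value was -1.24. The other imprinted gene called, Magel2, lay below 5 CPM.

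The metallothioneins, small proteins that bind zinc and copper, rose together. All 3 that could be tested were increased. Mt1 was at 595, 476 and 553 CPM in the deleted and 290.4, 164 and 139.6 CPM in the floxed libraries (1.45, SE 0.25, adjusted p = 0.0185). Mt2 was at 707, 709 and 642 against 500.1, 299 and 218 CPM (1.02, SE 0.26, adjusted p = 0.0355), and Mt4 stayed below 5 CPM. Every deleted library was above every floxed library for both abundant members. These genes lie on chromosome 8, whose genes in floxed replicate 2 had a median of 0.22 above the mean of the 6 libraries on the log2 scale, against -0.17 to -0.04 for its other autosomes. Sall1, Zfpm1, Col4a1, Col4a2, Mmp2 and Dusp4 lie on chromosome 8 too.

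**Figure D3:**
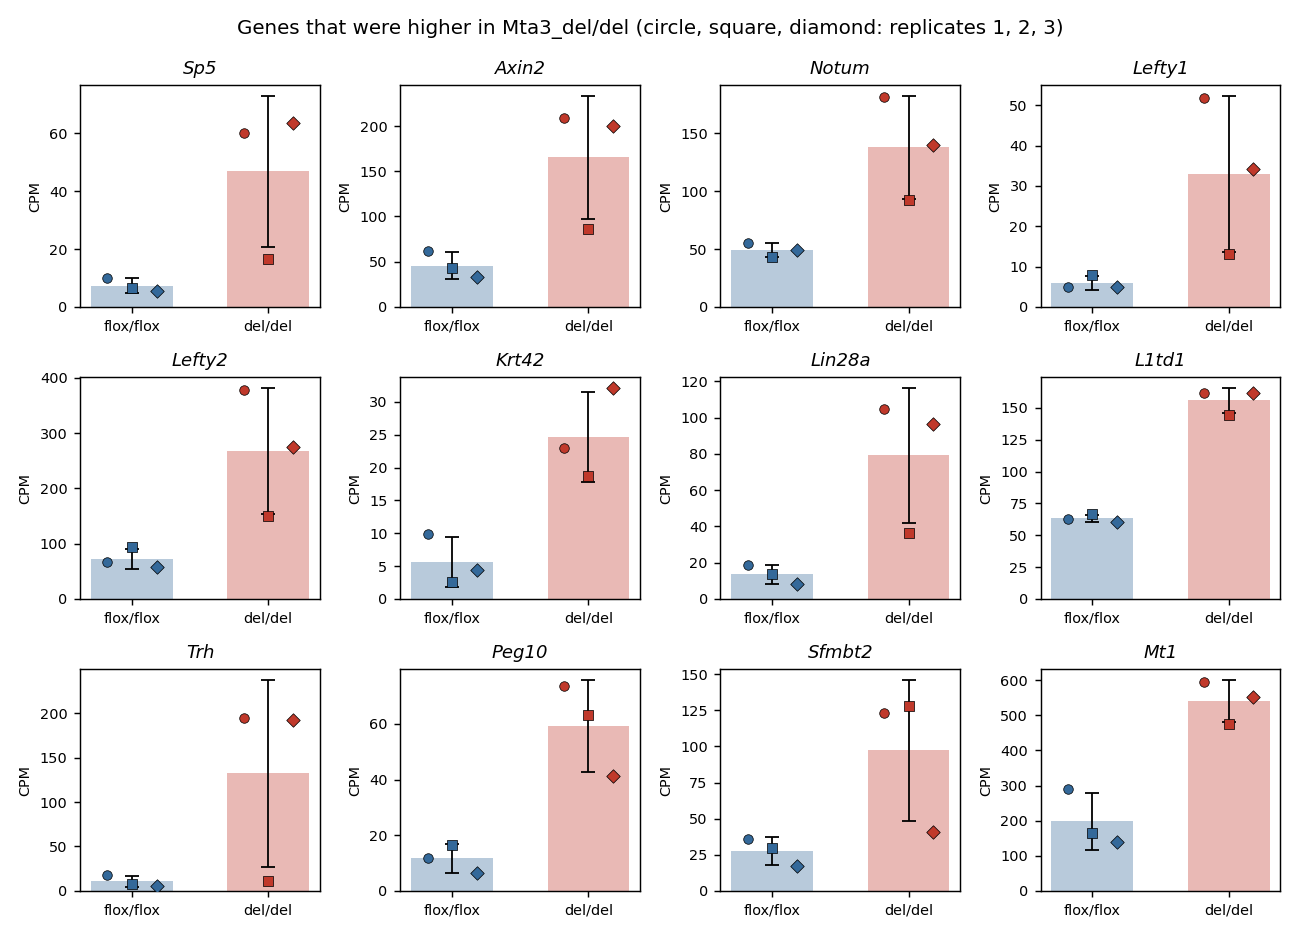
CPM of 12 genes called increased in Mta3_del/del. Bars are the mean of 3 libraries, lines the SD, and points the libraries, with axes from 0. In Sp5, Axin2, Notum, Lefty1, Lefty2, Krt42, Lin28a and Trh the square of deleted replicate 2 is the lowest of its group, and in Trh alone it lies within the range of the floxed libraries.

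Several further called genes are named after their values were seen. Srxn1, which repairs oxidised peroxiredoxins, was at 75.7, 73.0 and 75.3 CPM in the deleted and at 36.7, 26.8 and 35.6 CPM in the floxed libraries (1.18, SE 0.13, adjusted p = 0.0125). Nqo1, a quinone reductase, was at 174, 123 and 153 against 81.4, 70.9 and 70.6 CPM (1.01, SE 0.14, adjusted p = 0.0148). The glutathione transferase gene Gsto1 (1.05, adjusted p = 0.0441) and Ptgr1 (1.02, adjusted p = 0.0403) also rose. Tapbp, which loads peptides on class I molecules, was at 64.1, 43.7 and 91.8 against 32.5, 19.4 and 30.8 CPM (1.28, SE 0.28, adjusted p = 0.0247). Psme2, a proteasome activator subunit, rose by 1.25 (adjusted p = 0.0245) and Erap1, which trims peptides, by 1.34 (adjusted p = 0.0207), and so did Ddx58, the RNA sensor RIG-I, by 1.49 (adjusted p = 0.0174). Outside the list, 2 MHC genes were decreased by the weighted rule, H2-Eb1 at 4.39, 3.35 and 1.43 against 7.19, 14.1 and 10.8 CPM (-1.81, adjusted p = 0.0252) and H2-Q7 at 4.87, 10.2 and 4.03 against 29.7, 20.2 and 10.7 CPM (-1.66, adjusted p = 0.0373). In the list of 18 interferon and MHC genes tested, which had a median of -0.32 with 3 genes higher and 7 lower at an unadjusted p below 0.05, only the transcription factor gene Irf1 was increased (52.7, 36.4 and 72.4 against 24.8, 17.4 and 22.8 CPM, log2 fold change 1.32, adjusted p = 0.0204). Tap1, which carries peptides to the same class I pathway, moved the other way, at 3.88, 2.46 and 2.91 CPM in the deleted and 11.1, 12.02 and 11.8 CPM in the floxed libraries (-1.91, SE 0.22, adjusted p = 0.0125). Isg15 was called decreased below 5 CPM.

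Many genes of the extracellular matrix were decreased. Of 39 collagen genes tested, 12 were decreased and none increased, against 5.25% and 0.812% of all genes tested. Lower in all 3 pairs were 32 (82.1%), and the median was -1.12. Over all genes 30.4% were lower in all 3 pairs, but 21.2% at 5 CPM, so the share was higher below that level. The median over all genes was -0.86 under 1 CPM and -0.53 from 1 to 5 CPM. Only 16 of the 39 reached 5 CPM, so 30.4% is a low background for this list. By the weighted rule 8 of the 16 were decreased, against 3.02%. The chains of type IV collagen, the network of basement membranes, fell in each pair. Col4a1 was at 10.04, 7.87 and 9.63 CPM in the deleted and at 20.6, 48.2 and 32.0 CPM in the floxed libraries (-1.88, SE 0.29, adjusted p = 0.0151), and Col4a2 at 3.77, 4.56 and 4.51 against 12.7, 22.5 and 20.6 CPM (-2.13, SE 0.24, adjusted p = 0.0125). Col4a1 and Col4a2 share a bidirectional promoter and moved together. Both lie on chromosome 8, whose genes had a median of 0.22 above the mean of the 6 libraries in floxed replicate 2, the highest library of both. Col5a1, a fibrillar chain, was at 14.6, 9.57 and 15.8 against 23.7, 49.6 and 35.8 CPM (-1.45, SE 0.28, adjusted p = 0.0208).

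For the fibrillar collagens of connective tissue, much of the size of the decrease, though not its direction, rested on floxed replicate 3. Col1a1 was at 2.40, 2.83 and 2.69 CPM in the deleted and at 6.03, 5.52 and 23.5 CPM in the floxed libraries (-2.15, SE 0.54, adjusted p = 0.0337), and without floxed replicate 3 its value was -1.11. Col3a1 was at 0.00, 0.24 and 0.09 against 1.31, 0.71 and 20.8 CPM (-6.09, SE 1.53, adjusted p = 0.0338), and without that library it was -3.11. Of 20 fibroblast and mesenchyme markers tested, 8 were decreased, against 5.25% of all genes tested. Of these, 4 were at 5 CPM, and all 4 of those (Col1a1, Col3a1, Col5a1 and Fbn1) are matrix genes. The summed level of the list was 95.1 to 103 CPM in the deleted and 109.8 to 179 CPM in the floxed libraries. Of its 26 members, 5 were under 1 CPM in all 6 libraries. The part of other cells in these differences was not tested.

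Enzymes and inhibitors that shape the matrix followed the collagens. Of 42 tested, 14 were decreased and 1 increased, against 5.25% and 0.812% of all genes tested. Only 19 of the 42 reached 5 CPM, and by the weighted rule 7 of these were decreased and 1 increased, against 3.02% and 0.948%. Mmp2, a gelatinase that cleaves type IV collagen, fell from 12.1, 17.8 and 20.2 CPM to 3.91, 3.23 and 5.47 CPM (-1.999, SE 0.26, adjusted p = 0.0146). Mmp17, a membrane-anchored protease, fell by 1.22 (adjusted p = 0.0189), Adamts2, which trims procollagen, by 1.58 (adjusted p = 0.0213) and the inhibitor Timp3 by 1.60 (adjusted p = 0.0326). The prolyl hydroxylase gene P4ha2, which modifies collagen chains, fell from 14.9, 34.9 and 21.4 CPM to 6.39, 10.1 and 7.29 CPM (-1.59, SE 0.31, adjusted p = 0.0210). Of the cytoskeletal genes, the actin-binding Cald1 changed with little spread, at 14.6, 18.5 and 17.4 CPM against 47.9, 52.8 and 50.1 CPM (-1.58, SE 0.13, adjusted p = 0.00463). The intermediate filament gene Des fell by 1.62 (adjusted p = 0.0141), and the integrin genes Itga2b and Itgb3 by 1.59 and 1.11 (adjusted p = 0.0208 and 0.0349). Of the 15 genes of the mesenchymal transition and of those linked to Mta3, Snai1 included, none was called in edgeR (2 were higher and 2 lower at an unadjusted p below 0.05), and their median was -0.10. DESeq2 and limma-voom each called 1 of them, Twist1.

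Part of the amino acid response was lower in the deleted cells. In this pathway Atf4 and its partners, Chop (Ddit3) among them, switch on genes for amino acid synthesis, transport and redox balance. Of 22 genes tested, 4 were decreased and none increased, against 5.25% and 0.812% of all genes tested. Lower in all 3 pairs were 15 (68.2%, against 30.4% of all genes tested and 21.2% of those at 5 CPM), and the median was -0.58. Chac1, which degrades glutathione, was at 5.17, 6.38 and 7.90 CPM in the deleted and at 14.7, 20.7 and 26.5 CPM in the floxed libraries (-1.67, SE 0.25, adjusted p = 0.0148). Vldlr, a lipoprotein receptor, was at 2.25, 3.96 and 3.30 against 9.23, 14.4 and 15.6 CPM (-2.05, SE 0.28, adjusted p = 0.0148). Ddit3 was at 5.69, 7.47 and 5.81 against 19.5, 13.6 and 20.5 CPM (-1.50, SE 0.21, adjusted p = 0.0148), and Ddit4, an inhibitor of mTOR, at 17.4, 19.9 and 24.1 against 30.7, 41.2 and 50.8 CPM (-1.001, SE 0.20, adjusted p = 0.0211). Ddit4 thus lay at the fold threshold, and DESeq2 and limma-voom each called only the other 3 genes. The synthesis enzyme genes Mthfd2 (-0.85), Pck2 (-0.90) and Aldh18a1 (-0.59) passed the adjusted p without reaching the fold threshold, whereas Atf4 (-0.06, adjusted p = 0.768) and Asns (-0.16, adjusted p = 0.303) did not pass. Slc7a11, the cystine transporter gene, was slightly higher (0.39, adjusted p = 0.0454). The 4 called genes did not overlap between groups and so were lower within both kinds of library. Their differences were -2.48 to -1.31 within the low-satellite and -1.52 to -0.83 within the high-satellite libraries.

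Genes that respond to growth factor signals through ERK, which 2i inhibits, were mixed. Of 23 tested, 15 reached 5 CPM. By the weighted rule 4 of these were decreased and 1 was increased, against 3.02% and 0.948% of all genes at that level. Atf3, an immediate-early and stress-induced factor, was at 3.47, 4.52 and 3.73 CPM in the deleted and at 14.3, 23.6 and 14.9 CPM in the floxed libraries (-2.17, SE 0.24, adjusted p = 0.0125). Dusp4, a phosphatase that acts on ERK, was at 1.77, 1.70 and 1.34 against 5.30, 4.70 and 6.75 CPM (-1.79, SE 0.26, adjusted p = 0.0148). Jun was at 8.35, 13.04 and 8.11 against 21.4, 22.3 and 22.4 CPM (-1.16, SE 0.20, adjusted p = 0.0185), and Etv4 fell by 1.20 (adjusted p = 0.0295). Etv1, of the same ETS family as Etv4, moved the other way, from 1.82, 1.90 and 2.00 CPM to 6.31, 4.20 and 5.25 CPM (1.46, SE 0.25, adjusted p = 0.0185). Myc, also a Stat3 target, was called increased with 2.34 to 6.91 CPM in the deleted and 0.68 to 1.72 CPM in the floxed libraries.

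The promoters of Chac1, Vldlr and Atf3 are shown because each holds the composite motif of C/EBP and ATF factors, TTGCATCA, in capitals. Searched on both strands, it was in 4 of the 21 amino acid response genes with an entry (Chac1, Vldlr, Nupr1 and Slc7a11) and in 0.791% of all windows. It was in 9 of the 247 decreased genes with an entry (3.64%), Pycr1 and Jdp2 among them, in 2 of the 77 increased genes (2.60%), and in 0.731% of the 11906 tested genes with an entry.
Chac1, chr2:119350992-119351241, plus strand: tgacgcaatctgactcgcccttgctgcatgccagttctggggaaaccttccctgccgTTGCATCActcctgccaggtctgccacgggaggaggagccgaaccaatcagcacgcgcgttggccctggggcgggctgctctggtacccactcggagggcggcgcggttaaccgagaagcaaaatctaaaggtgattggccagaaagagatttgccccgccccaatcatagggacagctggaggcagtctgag
Vldlr, chr19:27216770-27217019, plus strand: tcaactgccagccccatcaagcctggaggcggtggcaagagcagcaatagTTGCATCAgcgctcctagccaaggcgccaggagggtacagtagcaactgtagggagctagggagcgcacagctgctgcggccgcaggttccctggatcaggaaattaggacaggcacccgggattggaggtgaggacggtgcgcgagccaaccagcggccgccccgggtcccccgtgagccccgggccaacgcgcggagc
Atf3, chr1:191183334-191183583, minus strand: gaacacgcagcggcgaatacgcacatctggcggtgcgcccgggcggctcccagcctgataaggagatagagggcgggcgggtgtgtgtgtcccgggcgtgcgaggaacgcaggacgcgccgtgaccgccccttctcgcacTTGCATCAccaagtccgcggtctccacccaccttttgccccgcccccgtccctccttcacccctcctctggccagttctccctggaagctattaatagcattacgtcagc

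**Figure D4:**
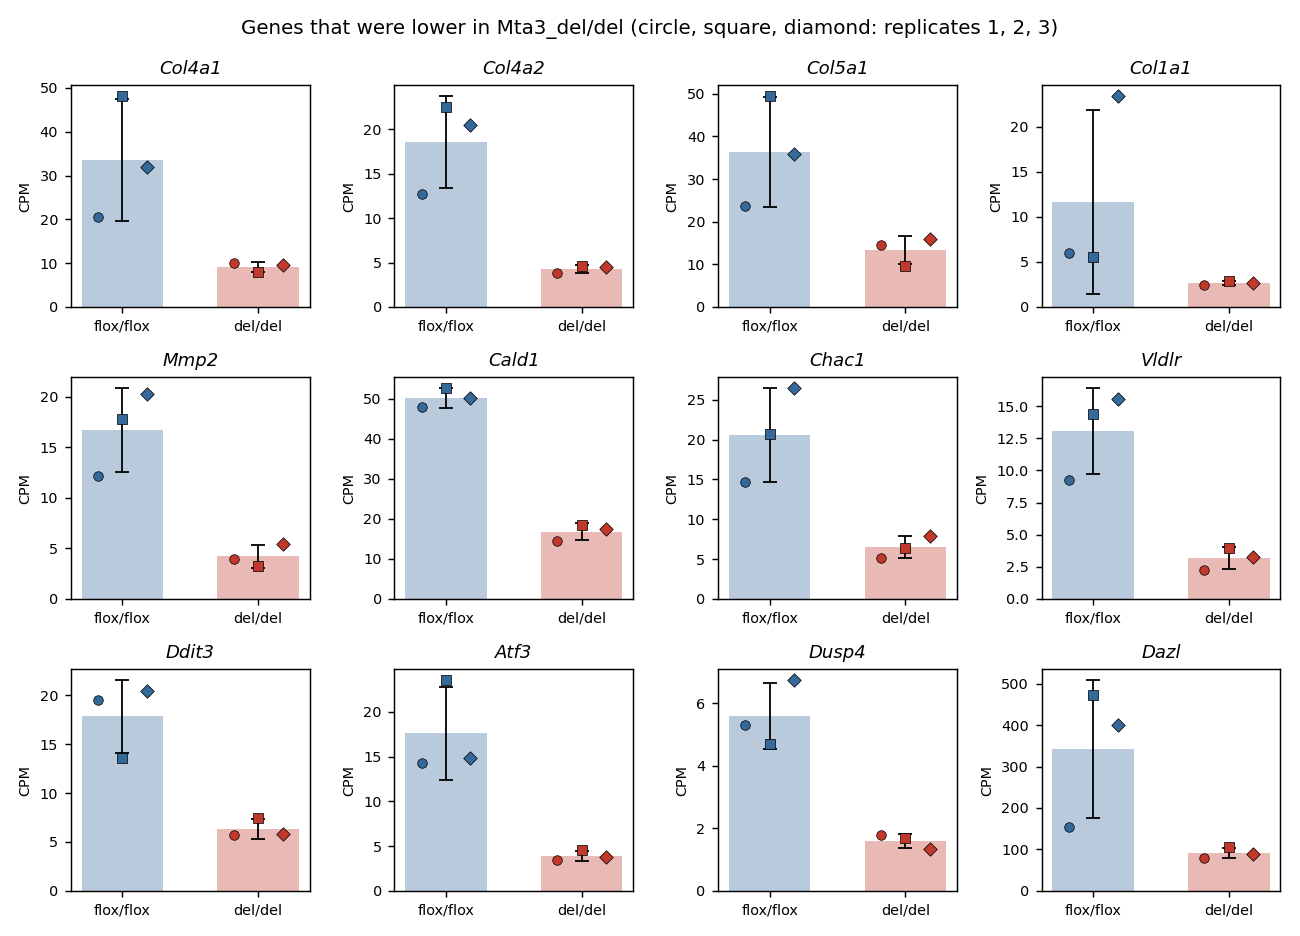
CPM of 12 genes called decreased in Mta3_del/del, outside the 2-cell-stage list. Bars are the mean of 3 libraries, lines the SD, and points the libraries, with axes from 0. The deleted libraries lie below every floxed library in all 12, and in Col1a1 the mean of the floxed group is raised by replicate 3 (diamond).

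Many classes held no called gene in edgeR. None was called among the genes of the DNA methylation machinery (13 tested, median 0.19), of Polycomb repressive complex 2 (10, -0.08), of the Sin3, CoREST and NCoR corepressors (14, 0.19), of the BMP pathway (16, -0.11), of the cell cycle (22, 0.14) or of the unfolded protein and heat shock responses (18, 0.19). The same held for cholesterol and fatty acid synthesis (32, 0.25), the nuclear-encoded respiratory chain (78, 0.19), the mitochondrially encoded genes (13, 0.34) and the cytosolic ribosomal proteins (81, -0.01). At an unadjusted p below 0.05, the numbers higher and lower were 5 and 0 for DNA methylation, 2 and 2 for Polycomb, 6 and 0 for the corepressors, 1 and 4 for BMP, 6 and 0 for the cell cycle and 6 and 1 for the stress responses. They were 11 and 0 for lipid synthesis, 24 and 2 for the respiratory chain, 5 and 0 for the mitochondrial genes and 0 and 1 for the ribosomal proteins. Over all genes tested these shares were 18.1% and 18%, so that the 24 of 78 respiratory chain genes (30.8%), 11 of 32 lipid genes (34.4%) and 5 of 13 methylation genes (38.5%) were read against a high background, on which nothing is built here. DESeq2 and limma-voom each called 1 gene of lipid synthesis, both called Smad9, and limma-voom also called Dnmt3b and Id3. Of 66 clustered histone genes, 59 were higher in all 3 pairs (89.4%, against 38.7% of all genes at 5 CPM, a level that 63 of the 66 reached) and their median was 0.50, with a sum of 9605 to 11462 CPM in the deleted and 6132 to 8207 CPM in the floxed libraries, but none reached the fold threshold in edgeR or limma-voom and 2 did in DESeq2. At an unadjusted p below 0.05, 53 of them were higher and 1 lower. Of the lineage genes, the primitive endoderm list had 3 decreased of 20, against 5.25% of all genes tested, and 2 of the 3 were the type IV collagen genes. The trophoblast list had 1 of 16, Esx1 (-1.52, adjusted p = 0.0251), the neural list 2 of 13 and the mesendoderm list 1 of 10. No gene of these lists was increased, and none of the neural or mesendoderm lists was called by the weighted rule.

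**Figure D5:**
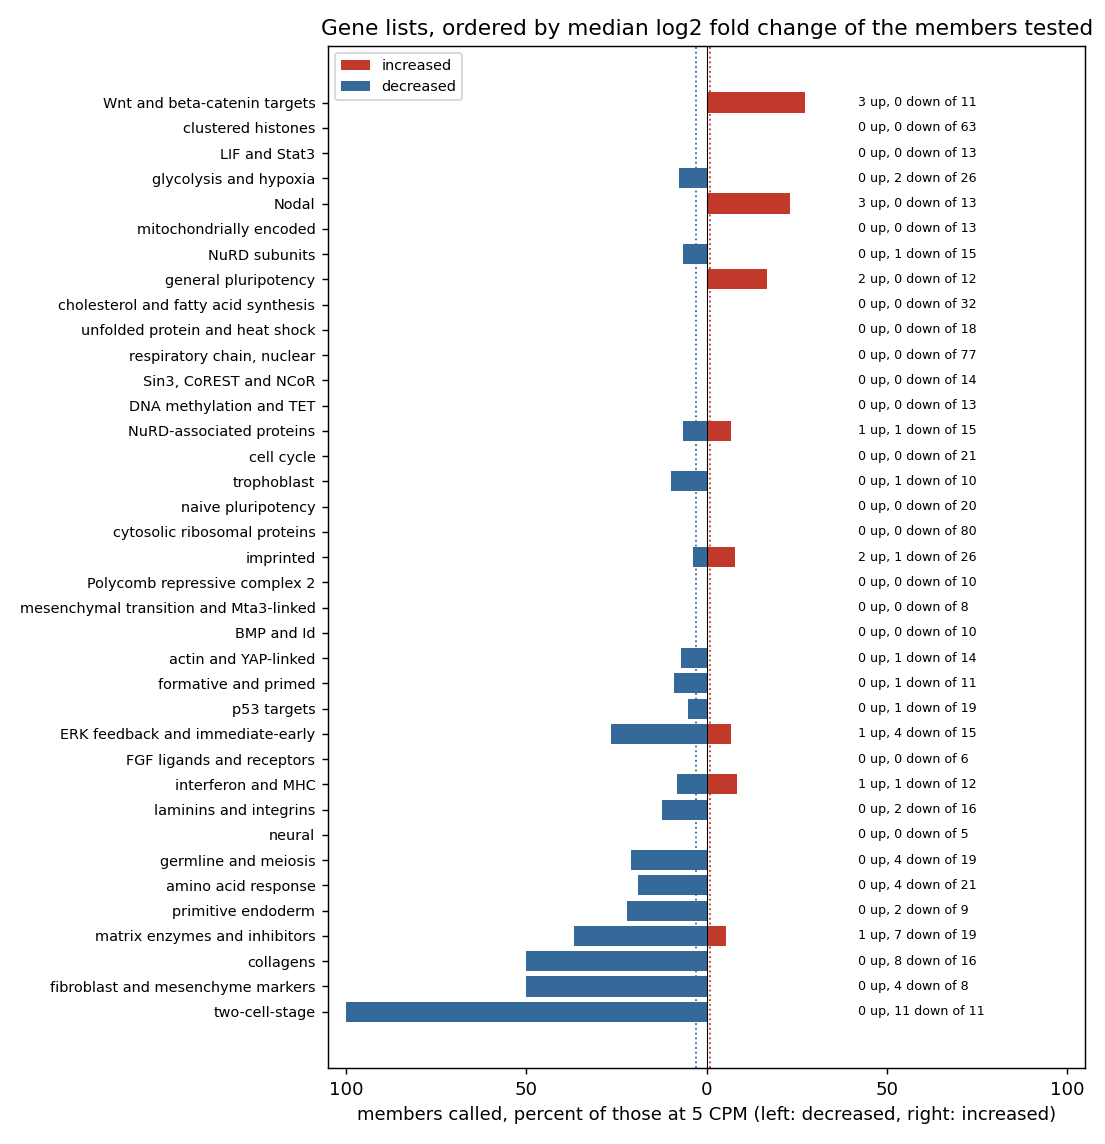
Share of the members with at least 5 CPM that were called increased (right, red) or decreased (left, blue) by the weighted rule, for the lists with at least 5 such members, ordered by the median log2 fold change of the members tested. Dotted lines mark the shares over all genes of this level, 0.948% and 3.02%. The 2-cell-stage list has 11 of 11 members decreased, the collagens 8 of 16 and the Wnt targets 3 of 11 increased.

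To see where these changes differ from those on loss of a paralogue, the difference between the change in Mta3_del/del and the change in Mta2_KO against Mta2_WT (3 libraries each, no library shared) was tested in 1 fit. Of the 71 named genes called here, 44 differed, with 30 of the 44 changing in the opposite direction in the Mta2 series. All 71 had been called for their change here, which is part of the difference tested, so a high count was favoured. Over all 16348 genes tested the difference was above 0 in 18.5% and below 0 in 13.1%. The fit took the spread of a gene over the 4 groups together, although the groups can differ in it. The SE of Zscan4c, for example, was 0.66 in the Mta3 libraries alone and 0.07 in the Mta2 libraries alone. Separate cultures are not taken as given for the Mta2 libraries either, so these p-values too measure the spread between libraries. The Mta2 series also holds libraries of both kinds, with 3.18% and 3.23% of reads on the satellite-repeat genes in Mta2_KO replicates 1 and 3 and 6.97% in Mta2_WT replicate 3. The 4 named genes of the 2-cell-stage list did not differ by this test. Zscan4c, for example, changed by -3.65 here and by -4.32 in Mta2_KO, a difference of 0.71 (SE 0.69, adjusted p = 0.452). Cald1 was alike as well, at -1.58 and -1.59 (difference 0.06, SE 0.13, adjusted p = 0.746). The Wnt targets went apart: Sp5 changed by 2.69 here and -0.86 in Mta2_KO (difference 3.63, SE 0.55, adjusted p = 0.000431), and Axin2 by 1.86 and -1.02 (difference 2.96, SE 0.40, adjusted p = 0.000201). Peg10 changed by 2.35 here and by -3.20 in Mta2_KO (difference 5.61, SE 0.37, adjusted p = 3.22e-06). Chac1 fell here by 1.67 and was 0.66 higher in Mta2_KO (difference -2.28, SE 0.31, adjusted p = 0.000209).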

How the data were processed

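RNA-seq reads of 3 Mta3_del/del and 3 Mta3_flox/flox libraries, and of 3 Mta2_KO and 3 Mta2_WT libraries, were analysed. The authors deposited raw counts, whole numbers for each gene and 1 library per file. By the study's methods, libraries were made with either of 2 stranded kits (which of them for which library is not given in the sources used here), trimmed with Trim Galore! 0.4.1 and mapped by TopHat 2.1.0 to the GRCm38/mm10 build, and featureCounts 1.5.0 then assigned them to genes of Ensembl 86. How reads with several alignments were handled is not given in the sources used here, which matters for multicopy genes. Symbols and positions came from GENCODE vM21 (21852 of 22018 identifiers matched). Promoters are the first 250 bases of RefSeq windows (GRCm38.p6), found for 51 of the 71 called named genes.

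Counts were tested with edgeR 4.0.16 in R 4.3.3 (TMM, filterByExpr, quasi-likelihood F test, Benjamini-Hochberg) on the 6 libraries without covariates. A gene was called at an adjusted p below 0.05 with a log2 fold change beyond 1 in size, and weighted at a mean of 5 CPM in the higher group with 3 same-numbered differences of 1 sign (log2 CPM, prior count 2). SE is the absolute log2 fold change divided by the square root of F. On simulated counts for 15305 genes of this comparison the fit recovered 63 of 100 genes changed 2-fold and 87 of 100 changed 4-fold. Recovery there took an adjusted p below 0.05 without the fold threshold, and the simulated counts did not hold the 2 kinds of library. Between replicates of a group chi-square per degree of freedom was at least 20.7, so each library was counted as a sample. At these totals the spread between libraries, not counting error, limits genes above a few CPM. Alternatives were DESeq2 1.42.0, limma-voom 3.58.1, other scalings, filters, left-out libraries, the replicate block and library-kind terms, the last chosen after the data were seen.

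The comparison and its gene lists were chosen with earlier results of these data known. Named genes are the NuRD subunits, the 12 largest changes in each direction by the weighted rule, and up to 4 called members of each list (2 by level where none was called); others are marked where they occur. Some called genes are not reported here. Libraries of Mta1 lines entered 1 alternative only, and libraries of Mta1, Mta2 and Mta3 triple mutants and their controls were not used here.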

Additional observations from a re-analysis of the deposited data

Results flagged for a closer look

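For each gene given here the change in Mta3_del/del differed from the change in Mta2_KO by the edgeR interaction test with Benjamini-Hochberg adjustment. Values are log2 differences, the change in Mta3_del/del minus the change in Mta2_KO. The genes had been called for their change in Mta3_del/del, which is part of the difference tested. Mta3 itself gave -2.45. The targets of Wnt and Nodal signalling lay above 0, with Sp5 at 3.63, Axin2 at 2.96, Notum at 2.05 and Lefty1 at 1.49. Of the other genes increased in Mta3_del/del, Trh gave 5.67, Peg10 5.61, Pdzrn4 4.16, Lin28a 3.16, Trim2 3.06, Etv1 2.47, Nkx6-2 2.15, Enox1 2.11, L1td1 1.93, Irf1 0.894 and Mt1 0.872. Among matrix, adhesion and cytoskeletal genes, Itgb3 gave -2.77, Col20a1 -2.68, Itga2b -2.42, Col5a1 -2.08, Col1a1 -1.96, Timp3 -1.73, Col4a2 -1.67, Col4a1 -1.33, Des -1.14, Mmp17 -1.01 and Fbn1 -0.891. Among stress and signalling genes, Tap1 gave -2.71, Atf3 -2.37, Dusp4 -2.30, Chac1 -2.28, Ddit3 -2.01, Vldlr -1.92, Ddit4 -1.91, Eno2 -1.72 and Plk2 -1.24. Among germline and other genes, Zfpm1 gave -2.47, Smc1b -1.98, Mov10l1 -1.80, Tex13b -1.70, Esx1 -1.60 and Dazl -1.43. Libraries high in satellite reads occur in all 4 groups, and their part in these differences was not tested.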

How the results depend on the processing

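Mta3 stayed past the threshold in all 20 alternatives, at -2.80 to -2.49. The 443 genes of the weighted sets kept their sign wherever they were tested, which their choice by large differences in these libraries largely fixed. Named genes near no difference did not keep theirs, with Mta1 at -0.08 to 0.10, Rbbp4 at -0.02 to 0.29 and Gatad2a at -0.07 to 0.28. Leaving out libraries (single libraries or same-numbered pairs) gave 0 to 251 genes increased and 1 to 1473 decreased, or 0 to 178 and 1 to 493 by the weighted rule. limma-voom called 1412 genes decreased, and the fit with no filter on low counts 191 increased. With only genes of a mean of 5 CPM, 57 were increased and 296 decreased (57 increased by the weighted rule). Without a threshold on fold change 1291 were increased, and 1269 and 724 by the weighted rule. Of the alternatives chosen after the data were seen, the olfactory receptor covariate left 20 and 76 (17 and 58 weighted), and leaving out the 3 libraries high in satellite reads gave 333 increased (214 weighted), with 1 floxed library assumed to vary like the others. The cause of these moves was not tested. DESeq2 gave 183 and 960. Same-numbered libraries deviated from their group means with correlations of -0.129 to 0.340, and 3 of 6 libraries correlated best with their own number, so the numbers were not taken as pairs; with the replicate block 114 genes were increased and 867 decreased, or 99 and 355 by the weighted rule. The 2-cell-stage Zscan4 genes lost their call without deleted replicate 1, without pairs 1 or 3, with the olfactory receptor covariate and in the fit of 18 libraries. The count of genes that differ from the Mta2 series stayed within 1.5 times under each alternative run.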
